A study of Arabidopsis thaliana with 4 samples.

Results

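The compact shared regions on the chromosome arms were the narrow sites at which a peak of MYC-bZIP17 was called in every ChIP replicate. They were chosen by measured values: peaks of the 3 lists that overlapped by at least 1 bp were merged, and a region was kept when it held a peak of all 3 replicates, had a merged width under 1000 bp and had its centre outside the pericentromeric windows, which span 12.5 to 17.5 Mb of chr1, 1.5 to 6.0 Mb of chr2, 11.0 to 16.5 Mb of chr3, 2.5 to 5.5 Mb of chr4 and 9.5 to 14.5 Mb of chr5. There were 362 such regions among the 1341 regions shared by the 3 replicates, which in turn were part of 8992 merged regions. The other shared regions were 942 of at least 1000 bp on the arms, called wide regions hereafter, and 37 in the pericentromeric windows.

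The ChIP material came from 13-day-old *Arabidopsis* seedlings of genotype 35Spro::MYC-bZIP17, which grew at 22 °C and then spent 2 h at 42 °C. The 35S promoter drives the tagged protein at a high level in most cells, so the sites are those of an overexpressed protein. There were 3 precipitations with an anti-MYC antibody, called replicates 1, 2 and 3, and 1 input library made without antibody from the same genotype and treatment. No precipitation from unheated or untagged seedlings was analysed here, and the labels do not say whether the replicates were separate cultures, so the SD over the 3 replicates may be technical. Peaks were called in each replicate against the same input. The pileup counts the fragments that cover the summit, the highest point of a peak, and the fold enrichment is that pileup over the local background estimated by the peak caller. The lists give no read totals, so the depth behind these values is unknown. Since width, overlap, pileup and summits all stem from the same peak calls as the choice of the regions, all values below are descriptions without a test.

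AtbZIP17 is a membrane-anchored transcription factor of the endoplasmic reticulum (ER). Under stress it moves to the Golgi, where proteases release its cytosolic part, and this part enters the nucleus and acts on promoters. Its relatives AtbZIP28 and AtbZIP60 drive the unfolded protein response, which raises chaperones and folding enzymes of the ER when unfolded proteins accumulate. How far AtbZIP17 itself acts in that response is not settled.

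Most narrow sites on the arms were seen in a single replicate. Of the 7546 merged regions on the arms that were under 1000 bp wide, 6263 (83.0%) held peaks of 1 replicate, 921 (12.2%) of 2 and 362 (4.80%) of 3. In these classes their peaks had a median fold enrichment of 2.10, 2.18 and 2.44 and a median pileup of 33, 34 and 40 fragments. The compact shared regions were thus only slightly taller than the narrow sites that failed to recur. They took 8.00%, 8.06% and 8.36% of the peaks of replicates 1, 2 and 3. By chromosome, 96 of the 391 shared arm regions of chr1 were compact, 47 of 175 on chr2, 81 of 265 on chr3, 48 of 164 on chr4 and 90 of 309 on chr5, a share of 24.6% to 30.6%.

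Each of the 362 regions consisted of exactly 1 peak per replicate, while 605 of the 942 wide regions did. The width limit leaves little room for a second peak of a replicate, so nothing is read from this difference. The merged width ranged from 307 to 997 bp with a median of 759.5 bp. The median width of the single peaks was 449.5, 496 and 483.5 bp in replicates 1, 2 and 3, so that the merged region was usually wider than any of its peaks. All 3 peaks overlapped one another in 349 regions (96.4%), whereas in the other 13 a peak of one replicate bridged the other two. Every pair of peaks overlapped by at least 50% of both in 167 regions (46.1%). Over all shared regions these shares were 94.3% and 54.2%, taken from the strongest peak of each replicate. Overlap and width chose the regions, so nothing is read from these shares.

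The threshold on width cut through a continuous range. Just inside it lay the region at *AT5G66790* with 997 bp and a mean fold enrichment of 1.94, an unjoined region at chr2:19569660-19570652 with 993 bp and 3.25, and the region at *SHY2* with 991 bp and 2.92. Just outside lay chr2:18910514-18911513 with 1000 bp and 2.10, the region at *DIN10* with 1001 bp and 2.68, and chr5:17272265-17273266 with 1002 bp and 2.95. The values on both sides of the threshold overlapped.

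The mean pileup of the compact regions ranged from 27.3 to 89.3 fragments with a median of 40.5, and the medians of the single replicates were 40, 41 and 40. In the wide regions these medians were 61, 66 and 63. The median fold enrichment was 2.36, 2.45 and 2.49 in replicates 1, 2 and 3, against 3.42, 3.80 and 3.79 in the wide regions. Only 11 compact regions had a mean pileup above the median of the wide regions, and 14 had a mean fold enrichment above it. The local background, taken as pileup over fold enrichment, had a median of 16.1 fragments in the compact and 16.8 in the wide regions. No compact region had a background over 3 times the median of all compact regions.

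**Figure D1:**
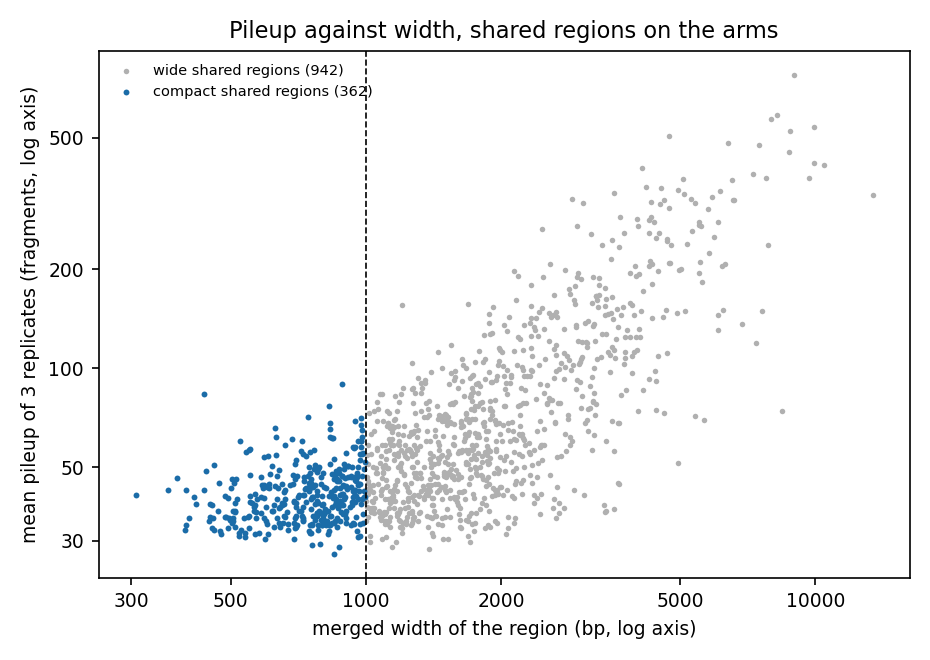
Mean pileup of the 3 replicates (fragments, log axis) against merged width (bp, log axis) for each of the 362 compact (blue) and 942 wide (grey) shared regions on the arms; the dashed line marks 1000 bp. The compact regions lie between 27.3 and 89.3 fragments, and the line is the width limit by which they were chosen.

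Spearman's rho between width and mean pileup was 0.242 over the 362 regions, and 0.662 over the 942 wide regions, where width and pileup come from the same peaks in both cases. The rule limits the compact regions to widths of 307 to 997 bp, while the wide ones reach 13436 bp, so the coefficients are not comparable. A fold enrichment of at least 3 in all 3 replicates was reached by 22 compact regions (6.08%), against a background of 42.7% in all shared regions. A *q* value, the *P* value adjusted by the peak caller, below 1e-05 in all 3 was reached by 84 regions (23.2%), against 59.4% in all shared regions. Both counts stem from the peak calls that chose the regions, so nothing is read from their place under the background. A *q* value below 0.01 in all 3 replicates held in 301 regions (83.1%), against 93.0% in all shared regions, from the same peak calls.

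The coefficient of variation of the pileup over the 3 replicates had a median of 9.97% in the compact and 10.04% in the wide regions, and it was over 20% in 22 compact regions. Since a compact region needed a called peak in every replicate, this choice limits how far the replicates of a region can differ. For the order of the compact regions by pileup, Spearman's rho was 0.657 for replicates 1 and 2, 0.665 for 1 and 3, and 0.690 for 2 and 3. In the wide regions, whose pileup spans a wider range, it was 0.942, 0.937 and 0.949. These correlations are across regions, which share an input library and are not replicates.

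A few compact regions carried high pileup for their class. A mean of at least 60 fragments was reached by 22 of the 362 regions (6.08%), against 40.5% of all shared regions. Of the 22, 5 were under 700 bp wide. The highest was the region upstream of *HSC70-1* (*AT5G02500*, chr5:556203-557088, 886 bp), which encodes a cytosolic heat shock cognate protein of the Hsp70 family. Its pileup was 92, 84 and 92 fragments in replicates 1, 2 and 3, and its fold enrichment was 3.95, 3.73 and 4.37, a mean of 4.02 ± 0.323 (SD, n = 3). The 3 summits lay within 23 bp. The local background at this site was 22.3 fragments, above the median of 16.1, so its order by fold enrichment was lower than its order by pileup.

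**Figure D2:**
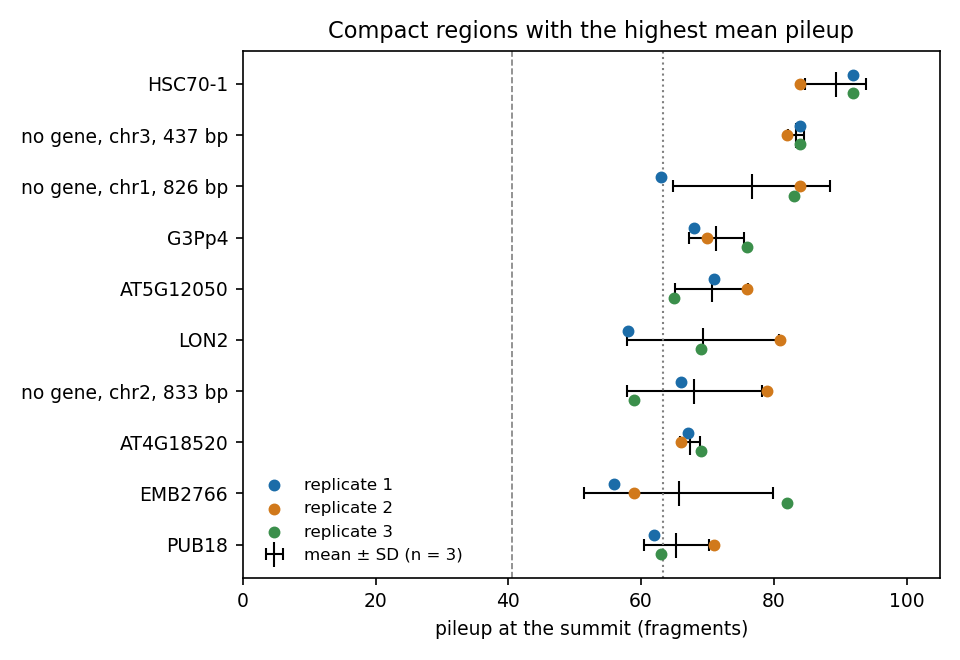
Pileup at the summit (fragments) in replicates 1 (blue), 2 (orange) and 3 (green) of the 10 compact regions with the highest mean pileup, with the mean and SD (n = 3) in black; the dashed and dotted vertical lines are the medians of the mean pileup of compact (40.5) and wide (63.3) regions. At *HSC70-1* and at the unjoined 437 bp region of chr3 every replicate lies at 82 fragments or higher.

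The clearest case of high pileup in a narrow site was chr3:4560669-4561105, which was 437 bp wide and had no gene joined to it in the lines of the target list used here. Its pileup was 84, 82 and 84 fragments and its fold enrichment 4.86, 4.88 and 5.14, with means of 83.3 ± 1.15 and 4.96 ± 0.157 (SD, n = 3). The peaks were 402, 428 and 420 bp wide, and their summits lay within 31 bp. The other compact regions under 500 bp were far lower: among the 31 of them the next highest mean pileup was 51 and the median was 37. A pileup of at least 80 occurred in 11 of the 7955 peaks under 500 bp in the 3 lists. These were the 3 peaks of this region, 6 peaks of 2 pericentromeric shared regions and 2 peaks in regions of a single replicate.

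The highest fold enrichment belonged to another region without a joined gene, chr1:6543320-6544145 (826 bp). Its fold enrichment was 4.74, 6.55 and 6.61 and its pileup 63, 84 and 83 fragments, so replicate 1 was lower than the other two in both. The mean fold enrichment was 5.97 ± 1.06 (SD, n = 3), and the summits at 6543636, 6543634 and 6543639 lay within 5 bp. The local background of 12.9 fragments was near the lowest of all compact regions, 12.8. Even this region was only number 232 among the 1341 shared regions by mean fold enrichment, and *HSC70-1* was number 298 by mean pileup.

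The remaining regions of this height differed in how far the replicates agreed. *LON2* (*AT5G47040*), a Lon protease of the peroxisome, had a pileup of 58, 81 and 69 and a mean fold enrichment of 4.25 ± 0.546 (SD, n = 3). *EMB2766* (*AT2G45000*), which encodes a nucleoporin, had 56, 59 and 82 fragments and 4.31 ± 0.922, so replicate 3 stood above the other two. *AT5G12050* had 71, 76 and 65 fragments and 4.51 ± 0.301, with summits within 7 bp. *G3Pp4* (*AT4G17550*), a glycerol-3-phosphate permease, had 68, 70 and 76 fragments, yet its fold enrichment was 3.02 ± 0.280 over a local background of 23.6 fragments. The same pattern of high pileup over high background held at *PUB18* (*AT1G10560*), a U-box ubiquitin ligase, with 62, 71 and 63 fragments and a fold enrichment of 3.08 ± 0.330, and at *AT4G18520* with 67, 66 and 69 fragments and 3.08 ± 0.149. The last of the 10 highest by pileup, chr2:12358834-12359666, had 66, 79 and 59 fragments and a fold enrichment of 3.86 ± 0.462 and was joined to no gene. Over all 362 compact regions, Spearman's rho between mean pileup and local background was 0.547, the background being computed from the pileup.

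By fold enrichment, 3 further regions were among the 10 highest. *PRR9* (*AT2G46790*), a pseudo-response regulator of the circadian clock, shared its region with *AT2G46787*; the pileup was 49, 60 and 60 and the fold enrichment 3.99 ± 0.495 (SD, n = 3). *NIMIN-2* (*AT3G25882*), which encodes a protein that binds the salicylic acid regulator NPR1, shared a region of 524 bp with *AT3G25880* and had 53, 60 and 67 fragments and 3.94 ± 0.674. *AT4G38060* had 60, 69 and 57 fragments and 3.94 ± 0.385. The lowest single value at these 3 regions was 3.42, in replicate 1 at *PRR9*, against a median of 2.43 for the means of all compact regions.

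The summits of the 3 replicates were within 200 bp in 237 of 362 regions (65.5%), against a background of 72.2% in all shared regions, within 100 bp in 130, within 50 bp in 59 and within 25 bp in 17. The width limit also caps this distance in the compact regions, so nothing is read from its share. The distance between the outermost summits ranged from 4 to 905 bp with a median of 143.5 bp, and the median was 79 bp in the wide regions. Between 2 replicates at a time, the median distance was 85 bp for replicates 1 and 2, 85.5 bp for 1 and 3 and 79 bp for 2 and 3, so no replicate stood apart.

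Summits lay closer together in regions of higher enrichment. In the 121 regions with the lowest mean fold enrichment (1.85 to 2.27) the median distance was 252 bp, 47 had summits within 200 bp and 23 had them over 500 bp apart. In the middle 121 regions (2.27 to 2.64) the median was 150 bp, with 84 within 200 bp and 3 over 500 bp. In the 120 regions with the highest fold enrichment (2.64 to 5.97) the median was 74 bp, close to that of the wide regions, with 106 within 200 bp and 0 over 500 bp. Spearman's rho between distance and mean fold enrichment was -0.52 over the 362 regions, both measures being read from the same peaks. All 22 regions with a fold enrichment of at least 3 in every replicate had their summits within 200 bp.

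**Figure D3:**
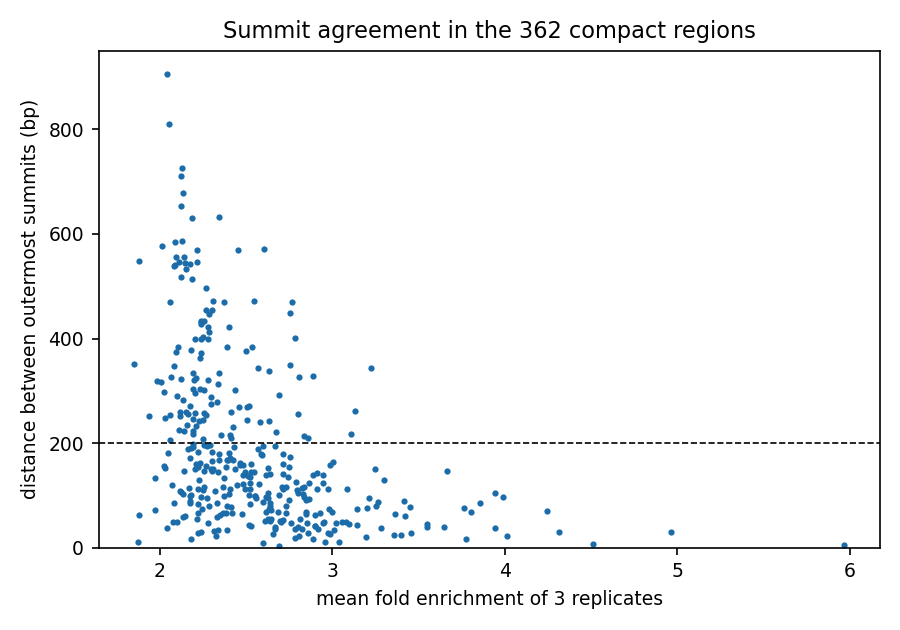
Distance between the outermost of the 3 summits (bp) against the mean fold enrichment of the 3 replicates, 1 point for each of the 362 compact regions; the dashed line marks 200 bp. No distance over 500 bp occurs above a fold enrichment of 2.64, and the region with the highest fold enrichment, 5.97, has a distance of 5 bp.

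High enrichment was not needed for close summits. The tightest region of all, chr3:6678555-6679425, had summits at 6678761, 6678762 and 6678758 and a mean fold enrichment of 2.70. At chr1:29327065-29327736 the summits lay within 12 bp, although its mean fold enrichment of 1.87 was the second lowest of all compact regions. *TCX2* (*AT4G14770*), which encodes a CXC domain protein, had summits within 10 bp and a fold enrichment of 2.60, and *CSP3* (*AT2G17870*), a cold shock domain protein, within 16 bp and 2.18. These 4 were picked after their values were seen.

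At the other end, at least 1 replicate had its summit far from the others. The largest distance, 905 bp, was found at chr4:15941659-15942627, where the summits of replicates 1, 2 and 3 lay at 15942264, 15942601 and 15941696 and the fold enrichment was 2.16, 2.01 and 1.96. Next came a region of *ABI2* with 810 bp, chr1:10555127-10555973 with 725 bp, chr4:16494592-16495440 with 710 bp and the region of *DJ1B* with 678 bp. Over these 5 regions the mean fold enrichment ranged from 2.05 to 2.13. In chr1:10555127-10555973 the 3 peaks did not all overlap, and the same held for chr4:16494592-16495440.

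The 5 narrowest regions had a mean pileup between 32.3 and 46.3 fragments, around the median of all compact regions. *SK32* (*AT4G00720*), a shaggy-like kinase, had a region of 307 bp, chr4:299076-299382, with peaks of 241, 294 and 265 bp. Its pileup was 44, 38 and 42 fragments and its fold enrichment 2.70 ± 0.203 (SD, n = 3), and its summits lay within 51 bp. The shortest peak in the whole list of replicate 1 was 241 bp and in that of replicate 3 265 bp, so in both lists *SK32* held a peak of the least width. The region joined to *NAD-ME2*, a mitochondrial malic enzyme, and *AT4G00580* was 362 bp wide with 39, 45 and 44 fragments, and that of *AT1G02816* 380 bp with 50, 48 and 41. The other two, chr2:18663304-18663698 with 395 bp and chr5:18982647-18983043 with 397 bp, had a mean pileup of 32.3 and 33.3 fragments and no joined gene.

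The nearest other shared region lay at a median distance of 20739 bp from a compact region, edge to edge, against 16030.5 bp from a wide one. It was within 500 bp for 31 compact regions, within 1000 bp for 45 (12.4%), within 10000 bp for 116 and within 100000 bp for 341. For wide regions, 104 of 942 (11.0%) had one within 1000 bp. In 265 of the 362 cases the nearest shared region was a wide one.

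**Figure D4:**
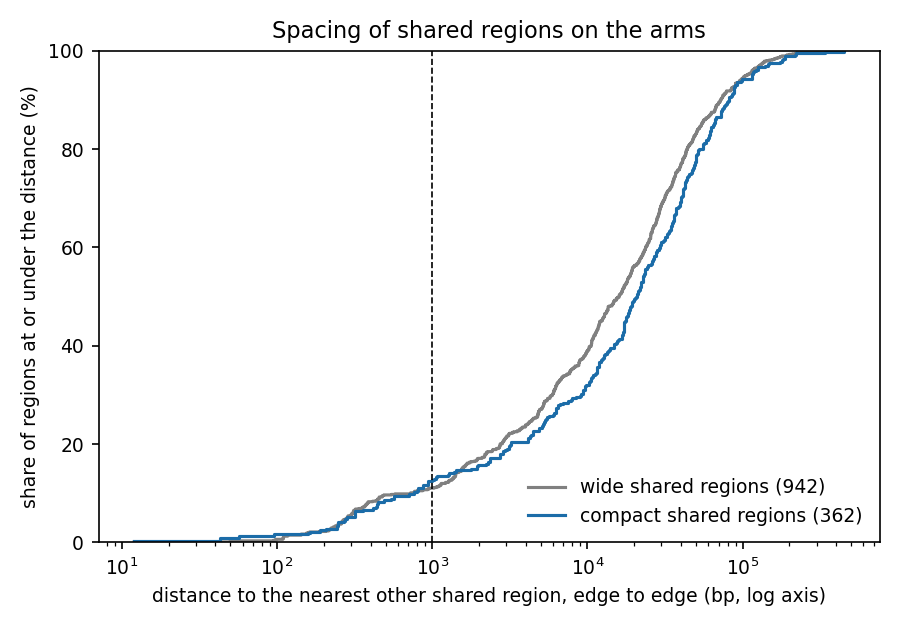
Share of compact (blue, 362) and wide (grey, 942) regions on the arms whose nearest other shared region lies at or under the distance on the x axis (bp, log axis), edge to edge; the dashed line marks 1000 bp. At 1000 bp the shares are 12.4% and 11.0%, and the medians are 20739 and 16030.5 bp.

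Compact regions with a close neighbour had lower medians of enrichment and wider summit distances. The 45 with a shared region within 1000 bp had a median fold enrichment of 2.25, a median pileup of 35 and a median summit distance of 259 bp. The other 317 had 2.50, 41 fragments and 129 bp. Summits were over 500 bp apart in 9 of the 45 and in 17 of the 317.

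In 25 of the 45 the neighbour was a wide region, and this neighbour had the higher mean fold enrichment in 21 of them, with a median of 3.58 over the 25. The closest was chr2:16701362-16702062, which lay 12 bp from a wide region of 5905 bp with a mean fold enrichment of 14.9. Its own pileup was 32, 33 and 35 fragments and its fold enrichment 2.25 ± 0.0959 (SD, n = 3), with summits 402 bp apart. The region of *DJ1B* (*AT1G53280*), a DJ-1 family protein, lay 320 bp from a wide region joined to the same gene. The wide region had a fold enrichment of 10.5 ± 1.90 and the compact one 2.13 ± 0.123. A region at chr5:6165437-6166030 with a mean pileup of 35 fragments lay 440 bp from a wide region with 484. These 3 compact regions lay beside much taller signal, and the part of that signal in their peaks was not tested. Other wide neighbours were close in mean fold enrichment, such as 2.29 beside 2.08 at chr4:13903606-13904441. At chr5:25436782-25437591 it was 2.46 beside 2.35.

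In the other 4 the compact region had the higher mean fold enrichment. The largest difference was at chr3:22325992-22326621, which had a mean pileup of 62 fragments, a fold enrichment of 3.78 and summits within 16 bp, 247 bp from a wide region with 3.05. The others were *SYP111*/*ACHT4* with 2.15 beside 2.12, *SHY2* with 2.92 beside 2.53, and chr3:7916844-7917487 with a mean of 2.296 beside 2.272. At *SYP111*/*ACHT4* the SD was 0.392 in the compact and 0.385 in the wide region. The mean pileup went the other way there, with 38.3 beside 47.7 fragments, and at chr3:7916844-7917487, with 33 beside 36.7. At the remaining regions it was higher in the compact one. *SYP111* encodes a syntaxin of the cell plate, and *SHY2* a repressor of auxin responses.

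The other 20 formed 10 pairs of compact regions. The closest pair lay on chr5, where chr5:1623193-1623951 and chr5:1623995-1624918 were 43 bp apart and had pileups of 31, 34 and 36 and of 43, 44 and 53. In the first the summits moved by 576 bp between replicates and its 3 peaks did not all overlap. At *UBP1B* (*AT1G17370*), which encodes an RNA-binding protein of stress granules, the regions were 57 bp apart. The left one had 47, 51 and 54 fragments and a fold enrichment of 3.25 ± 0.354, and the right one 34, 28 and 30 fragments and 2.09 ± 0.178 (SD, n = 3). The pileup of the left region was higher in 3 of 3 replicates, and its summits were 150 bp apart against 584 bp on the right.

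A pair joined to 1 and the same gene was seen at 3 other places. *ERF4* (*AT3G15210*), a repressor of ethylene and stress responses, and its neighbour *AT3G15200* had regions with 50, 45 and 46 and with 38, 31 and 36 fragments, 248 bp apart. *ABI2* (*AT5G57050*), a protein phosphatase that inhibits abscisic acid (ABA) signalling, had regions 282 bp apart. The first had 37, 32 and 36 fragments with summits within 116 bp, and the second had 31, 33 and 30 fragments with summits 810 bp apart. *AT1G13940* had regions 565 bp apart with a mean fold enrichment of 2.24 and 2.27.

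**Figure D5:**
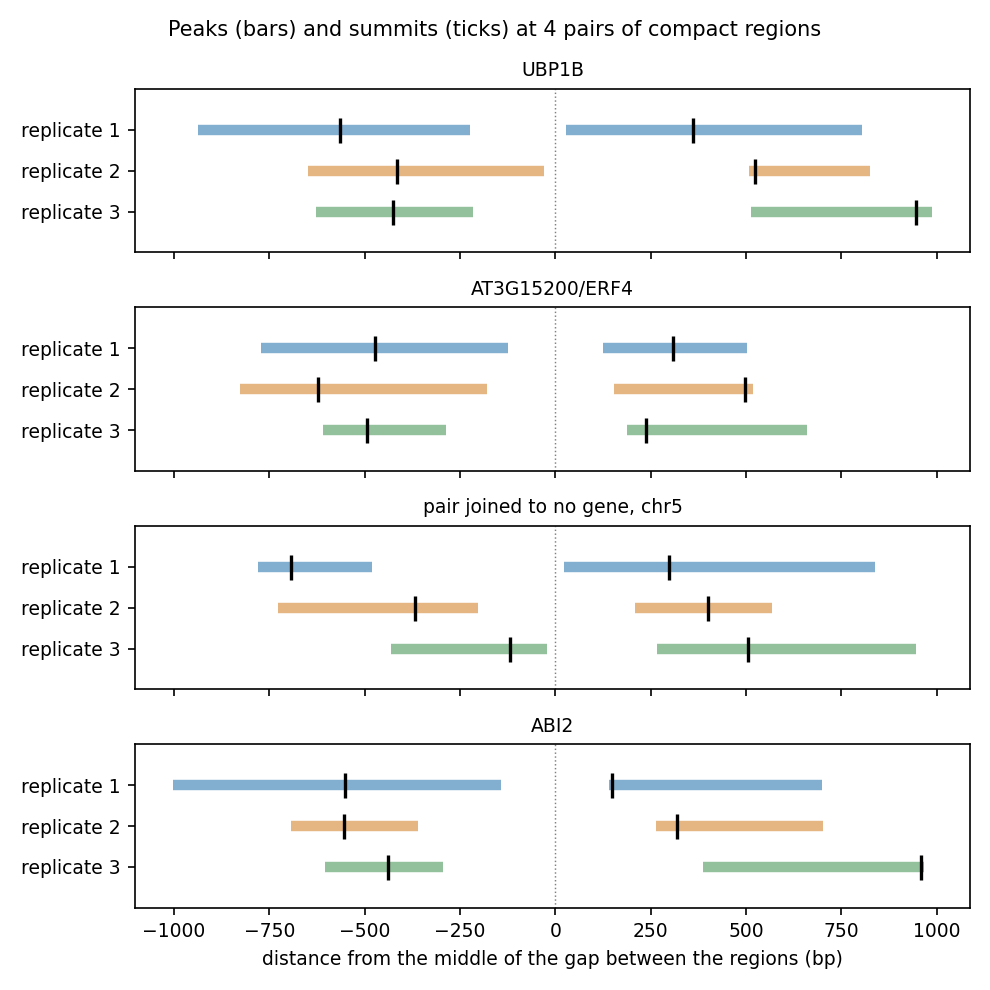
Peaks (bars) and summits (black ticks) of replicates 1 (blue), 2 (orange) and 3 (green) at 4 pairs of compact regions, by distance from the middle of the gap between both regions (bp). At *UBP1B* the summits lie within 150 bp on the left and 584 bp apart on the right, and at *ABI2* within 116 bp on the left and 810 bp apart on the right.

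Some compact regions stood far from any other. *RXW8* (*AT1G58520*) lay 451575 bp from the nearest shared region, the largest distance of all. Its pileup was 52, 56 and 68 fragments and its fold enrichment 3.55 ± 0.490 (SD, n = 3), with summits within 46 bp. The next were chr1:12477900-12478709 at 338850 bp, *AT2G31940* at 219207 bp, *TBL22*, a member of the trichome birefringence-like family, at 217378 bp, and chr1:25237815-25238584 at 187982 bp. Their mean fold enrichment was 2.64, 2.73, 2.26 and 2.29, so the 5 most isolated regions ranged from 2.26 to 3.55.

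The study's target list pairs genes with peaks in their 2 kb of upstream sequence. It is held here only in part (1389 of 2629 lines), so a region without a gene may have one in the other lines. In the lines used, 164 compact regions (45.3%) were joined to a gene, against a background of 50.5% in all shared regions, and 161 of them had the peaks of all 3 replicates on one line. The median fold enrichment was 2.54 in the joined and 2.32 in the other 198 regions. By chromosome, the joined share of compact regions ran from 36.7% on chr5 to 64.6% on chr4. Whether this follows from the lines held was not tested. The joined regions named 199 genes. A single region was joined to 2 genes in 34 cases and to 3 genes in 3 cases, and 22 of the 31 pairs whose place was known were neighbours in gene order. For such pairs the lists cannot tell which gene a peak belongs to.

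The genes were mostly protein coding. Of the 199, 184 encoded proteins, 4 were tRNA genes, 3 lncRNA genes, 1 a snoRNA gene and 2 pseudogenes, while 5 were not found in the RefSeq table. In the wide regions, 566 of 610 joined genes encoded proteins and 4 were tRNA genes. Since the list holds only the 2 kb upstream of a gene and is held in part, nothing is read from the following count. Of the 199 genes, 10 were also joined to a wide region. Among them were *BZIP53* (*AT3G62420*), a bZIP factor of low energy and seed maturation responses, whose compact region had a mean fold enrichment of 2.64 and whose wide region had 2.75, *EMF1* (*AT5G11530*), a repressor of flowering, with 2.40 and 3.58, and *FIM1* (*AT4G26700*), an actin-bundling fimbrin, with 2.82 and 3.80.

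Over all 842 genes of the lines used, 199 were joined to compact and 610 to wide regions, and the counts for 3 lists of genes are given beside this background. Nothing particular to a list is read from so few genes. Of 38 listed genes for ER folding and its regulation, 10 occurred in the lines used, of which 0 were joined to a compact region, 9 to a wide and 1 to a pericentromeric region. Of 25 genes for ABA and water responses, 9 occurred, of which *ABI2* was joined to compact regions and 8 genes to wide ones. Of 15 genes of the cytosolic heat response, only *HSP101* (*AT1G74310*), a disaggregase that rescues proteins after heat, occurred, and its region was compact. The pileup at *HSP101* was 42, 43 and 45 fragments and the fold enrichment 2.53, 2.67 and 2.87, a mean of 2.69 ± 0.170 (SD, n = 3), in a region of 590 bp with summits within 101 bp. At *HSC70-1*, which is on none of the 3 lists, the pileup was at least 84 in all replicates.

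Of the 199 genes, 14 (7.04%) were on the study's list of genes induced by heat in flowers in dependence on AtbZIP17, beside 57 of all 842 genes (6.77%) in the lines used. The shares were near each other. That list rests on RNA of floral buds from wild-type and mutant plants under another heat treatment, while the peaks come from overexpressing seedlings. The 5 with the highest fold enrichment were *RXW8*, *G3Pp4*, *AT5G52980*, *PEX11D* and *AT3G59490*. *AT5G52980* shared its region with *AT5G52990* and had 49, 47 and 54 fragments and a fold enrichment of 2.95 ± 0.278 (SD, n = 3). *PEX11D* (*AT2G45740*), which acts in the multiplication of peroxisomes, shared a region of 552 bp with *AT2G45730* and had 53, 61 and 57 fragments and 2.91 ± 0.0971. *AT3G59490* had a region of 398 bp with 46, 45 and 37 fragments and 2.85 ± 0.249. Also on that list were *FD1*, a ferredoxin, *RBCS3B*, a small subunit of Rubisco, and *CSP3*, with a mean fold enrichment of 2.60, 2.34 and 2.18.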

How the data were processed

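ChIP-seq peak lists of 3 anti-MYC samples were used, while the 1 input library served as the reference in peak calling. The authors trimmed the reads with Skewer, removed those under 50 bp, retained single-position Bowtie alignments, removed duplicates and called peaks with MACS in each sample against the input at a *P* value of 0.001. The build was TAIR10 according to the submitters' processing notes. The deposited pileup is a signal in fragments at the summit. The deposited fold enrichment is a ratio of pileup to local background. Each peak in the deposited lists has a −log10 p-value and a −log10 q-value. Unique mapping keeps repeated sequences out, and a missing peak can be one just under the limit.

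Each replicate entered with its most enriched peak in a region. The regions and gene lists were chosen with earlier results of these data known. The named regions were the 10 highest by mean pileup and by mean fold enrichment, the 5 at each end of spacing, the 5 narrowest, the 5 with the largest summit distance, the 5 highest on the flower list, those of the gene lists and the 3 on each side of the width limit (*MSS3* ties with *SHY2* at 991 bp). Any other was picked after its values were seen. Peaks were joined to genes by peak name only, through the lines of the target list used here. Of the 199 genes, 194 were found in the RefSeq table of TAIR10.1, which gave symbols and gene order, and none of its coordinates were used. No genome sequence or gene strand was used here. Merging, region classes, replicate numbers, summit distances and spacing were tested on simulated peaks. Other steps, such as joining peaks to genes, were not. Python 3.11.15, pandas 2.3.3, NumPy 2.4.6 and matplotlib 3.10.9 were used.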

Additional observations from a re-analysis of the deposited data

How the results depend on the processing

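Of 35 alternative settings and left-out replicates, 17 kept their value within 1.5 times for counts or within the spread of the replicates for medians, and 18 moved. For the median spacing no such spread was set, so its alternatives counted as moved at any value. The number of compact shared regions, 362, became 167 with a reciprocal overlap of 50%, 84 with *q* below 1e-05, 22 when every peak had to reach a fold enrichment of 3, and 213 with a width limit of 800 bp. With one replicate left out it was 766 to 869, since peaks of 2 replicates then sufficed. With *q* below 1e-05, the median pileup was 51.2 instead of 40.5, the median fold enrichment 3.01 instead of 2.43 and the median summit distance 69.5 instead of 143.5 bp. The medians without 1 replicate were taken over the same 362 regions, which all 3 replicates had chosen. They were 39.5 to 41 fragments, a fold enrichment of 2.40 to 2.47 and 79 to 85.5 bp. That distance is between 2 summits, so it cannot be set against 143.5 bp, which spans 3. Summits within 100 bp were found in 130 regions, against 237 within 200 bp. The median spacing of 20739 bp became 22269.5 bp from centre to centre, 86605 bp to other compact regions only and 10680.5 bp when regions of at least 2 replicates counted as neighbours. No paired analysis was possible because all ChIP samples belong to 1 condition and no test was run. Motif shares and distances to gene starts were not run, since no genome sequence or gene strand was used here. All 3 lists were called against 1 input, and depth is unknown.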

Other observations

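The genes joined to compact regions also fell into other functional groups, which were set up after the gene names were seen and are given as values only. No share of such genes in wide regions or over all listed genes is given, so nothing is read from their number. For chloroplast functions there were 11 genes, with a mean fold enrichment from 2.04 to 3.81 and a median of 2.78. The highest was *PSAE-1* (*AT4G28750*), a subunit of photosystem I, with 74, 62 and 59 fragments in replicates 1, 2 and 3. Its fold enrichment averaged 3.81 ± 0.105 (SD, n = 3). *HCF244* (*AT4G35250*), which acts in the synthesis of a photosystem II core protein, had 56, 68 and 43 fragments and 3.20 ± 0.651, so its replicates differed more. *TROL* (*AT4G01050*), a thylakoid anchor of ferredoxin reductase, had 47, 49 and 42 fragments in 514 bp with summits within 19 bp. The lowest was *FED A* (*AT1G60950*), a ferredoxin, with 47, 48 and 53 fragments but a fold enrichment of only 2.04 ± 0.203.

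Regulators of transcription made up 15 genes with 16 regions and a mean fold enrichment from 1.88 to 3.99. *NF-YC2* (*AT1G56170*), a subunit of the CCAAT-binding nuclear factor Y, had 46, 74 and 60 fragments, so replicate 2 stood above replicate 1. *FWA* (*AT4G25530*), a homeodomain gene that delays flowering when expressed, shared its region with *SLK1* and had 49, 40 and 52 fragments and 3.10 ± 0.438 (SD, n = 3). The lowest was *BOA* (*AT5G59570*), a component of the circadian clock, whose region was also joined to *SRR1*, with 1.88 ± 0.404. Of 4 auxin genes, *GH3.3* (*AT2G23170*), which conjugates auxin to amino acids, was the highest with 64, 65 and 54 fragments and 3.67 ± 0.405, and *YUC9* (*AT1G04180*), an enzyme of auxin synthesis, had 42, 44 and 42 fragments and 2.98 ± 0.123. *NPR3* (*AT5G45110*), a salicylic acid receptor, had 50, 50 and 41 fragments and 2.87 ± 0.261.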
